A study of Caenorhabditis elegans and Caenorhabditis briggsae
Caenorhabditis elegans with 146 samples.

Results

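The hlh genes of C. elegans encode basic helix-loop-helix (bHLH) transcription factors. The genes described here were chosen by their public name in the expression table, hlh- and a number, and are 24 of the 20411 genes listed. bHLH proteins bind DNA as dimers: the basic region contacts short E-box-type sequences, and the helix-loop-helix pairs one chain with another. Class I proteins (E proteins) are broad partners, while the tissue-specific class II proteins, such as the achaete-scute, Twist and Olig relatives, pair with them and are known for choosing neural, glial, muscle and gland fates in the embryo. Other branches work differently, among them the REF-1 family, which Notch signals switch on in early blastomeres, and the TFEB relative HLH-30, which runs lysosome and autophagy genes.

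The libraries come from a study of X chromosome dosage compensation, the process by which the dosage compensation complex (DCC) lowers expression from the X chromosomes of XX hermaphrodites. PolyA mRNA-seq was made from whole embryos or larvae, and the values are FPKM, fragments per kilobase of transcript scaled to the number of mapped reads. The 79 FPKM libraries used fall into 23 groups, and 6 further L1 libraries hold read counts with C. briggsae L1 larvae mixed in as a spike-in. Each replicate pooled collections of whole animals, so p-values measure the spread between such pools, and fewer cells of a type cannot be told apart from less RNA per cell.

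The mutant and RNAi groups were as follows. dpy-27(y56) embryos and L1 larvae lacked the condensin subunit DPY-27, came from homozygous mothers of the balanced strain MK4, and so lacked the maternal product too. Early embryos labelled heterozygous for dpy-27(y56) gave 2 libraries, and the sample titles do not say whether the embryos or their mothers were heterozygous. dpy-21(e428) animals (strain CB428), mutant for a non-condensin DCC subunit, were collected as early embryos, mixed-stage embryos and L3 larvae. set-4(n4600) animals (strain MT14911), without the enzyme that makes the di- and trimethyl forms of H4K20, gave mixed embryos, L3 larvae and the spike-in L1 larvae. set-1(tm1821) homozygous larvae, without the enzyme that makes H4K20me1, were picked from the balanced strain SS1075 with heterozygous larvae of the same strain as the control, told apart by the GFP balancer. The set-1 larvae are L2 by their labels but L3 by the headers of the expression table. dpy-27 RNAi was given by feeding from L1 onward and set against bacteria with a control vector, in mixed embryos and in L3 larvae. The wild type was N2, taken as hermaphrodites in early and comma embryos and as L1 and L3 larvae, with a second collection of L3 larvae that served the dpy-21 and set-4 comparisons. Mixed sex animals were fog-2(oz40) (strain BS553), whose XX animals make no sperm, so that the population holds XO males beside XX animals. N2 and mixed sex groups therefore differ in strain as well as in the share of males, and these cannot be told apart. Comma embryos were early embryos aged 4 hours, L1 larvae had 6 hours of food and L3 larvae 24 hours.

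Some libraries stood apart from their labels or from their group. N2 L1 replicate 3 and mixed sex L1 replicate 1 held identical values in 20376 of 20376 genes. That library was therefore left out of both groups, which then had 2 libraries each. N2 L1 replicate 2, which was kept, had 15003 genes above 1 FPKM, against 12188 to 13198 in the other L1 libraries with FPKM values. Its early zygotic markers summed to 16.02 FPKM, against 0 to 1.30 FPKM in those libraries, and the cause was not tested. her-1, the switch for male fate, was at 7.32 to 9.48 FPKM in N2 early embryos, against 85.1 to 134 FPKM in mixed sex early embryos. At L3 it was at 0 FPKM in all 3 N2 libraries, against 0, 4.76 and 8.49 FPKM in mixed sex replicates 1, 2 and 3, so mixed sex L3 replicate 1 goes against its label. set-4 mRNA stood at 0.223 FPKM in the library labelled dpy-21 mixed embryo replicate 3 and at 52.6 FPKM in the library labelled set-4 mixed embryo replicate 2, each against its label, and the dpy-21 and set-4 mixed embryo groups entered no comparison. set-4 mRNA was at 0 to 0.895 FPKM in set-4 L3 larvae, against 7.96 to 11.2 FPKM in N2. dpy-27 mRNA stood at 26 to 36.9 FPKM in dpy-27 RNAi embryos, against 64.9 to 135 FPKM with the vector. In L3 larvae the groups overlapped: dpy-27 RNAi libraries had 115, 15.8, 15.7 and 19.9 FPKM, against 17.1 to 26 FPKM with the vector. These are mRNA levels. By western blot the paper reports less DPY-27 protein after RNAi at both stages, with a weaker knockdown in L3 larvae than in embryos. The y56, e428 and tm1821 lesions left mRNA of their own genes (39.1 to 59.7 FPKM of dpy-27 and 21.3 to 75.0 FPKM of dpy-21 in mutant early embryos, and 20.3 to 24.9 FPKM of set-1 in homozygous larvae), so those levels check no label.

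The family lies on every chromosome, with 6 of the 24 genes on X (hlh-8, hlh-13, hlh-15, hlh-19, hlh-28 and hlh-29), 25% of the members against 13.6% of all genes with a chromosome. A further 6 lie on II, 5 on IV, 3 on III, 2 on I and 2 on V. In the WBcel235 annotation hlh-28 and hlh-29 are next to each other on X, hlh-25 and hlh-26 are next to each other on II with hlh-27 close by, and hlh-17 and hlh-31 are next to each other on IV. hlh-28 and hlh-29 had exactly the same FPKM in 16 of the 43 libraries in which either was above 0, and a ratio of 0.800 to 1.26 in the 29 libraries with at least 1 FPKM of each. Their reads may have been divided between them, so the hlh-28 and hlh-29 values are uncertain and count as little more than 1 measurement.

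Every member was above 0 in some library. hlh-2, which encodes the E protein HLH-2 (Daughterless) and is the common dimer partner of the class II factors, exceeded 1 FPKM in 78 of 78 distinct libraries, as did hlh-30. At the other end hlh-31 exceeded 1 FPKM in 12 libraries, hlh-34 in 20, hlh-26 in 21 and hlh-12 in 28. In N2 early embryos the highest mean levels per length were those of hlh-2 (185 ± 13.2 FPKM, SD, n = 3), hlh-3 (111 FPKM), hlh-30 (50.7 FPKM), hlh-14 (44.1 FPKM) and hlh-25 (18.9 FPKM). In N2 comma embryos hlh-30 led with 192 FPKM, followed by hlh-2 with 149, hlh-3 with 88.5, hlh-14 with 69.9 and hlh-15 with 53.2 FPKM. In N2 L1 larvae hlh-30 (146 FPKM) and hlh-11 (137 FPKM) stood far above hlh-2 (15.2 FPKM), hlh-33 (9.54 FPKM) and hlh-4 (7.33 FPKM). In N2 L3 larvae the order was hlh-30 (111 FPKM), hlh-11 (89.9 FPKM), hlh-33 (11.2 FPKM), hlh-2 (6.29 FPKM) and hlh-8 (6.03 FPKM). hlh-30 and hlh-11 did not overlap between libraries in N2 L3, while hlh-2 (4.98 to 7.18 FPKM) and hlh-8 (4.97 to 7.11 FPKM) did.

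**Figure D1:**
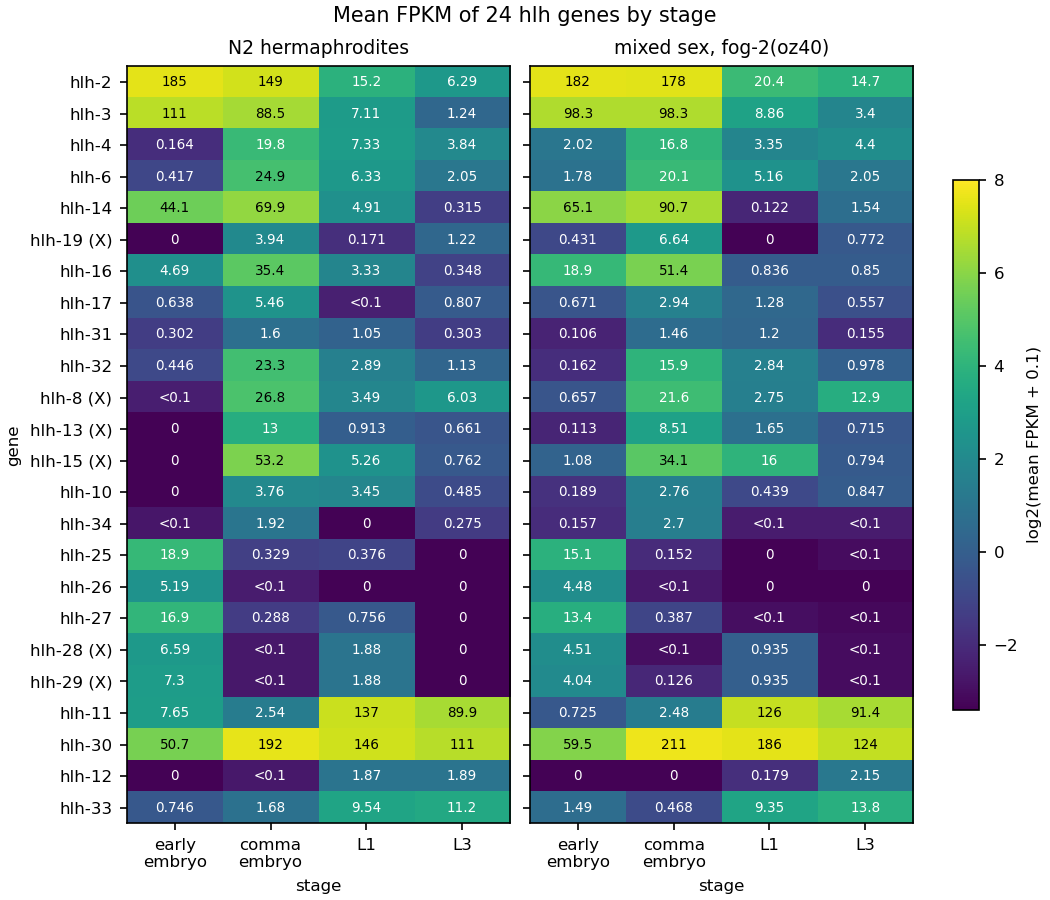
Mean FPKM of the 24 hlh genes (rows) at 4 stages (columns) in N2 hermaphrodites (left) and mixed sex animals (right), with colour on a log2(mean FPKM + 0.1) scale and the mean printed in each cell. Means are over 3 libraries, or 2 at L1, and (X) marks X-linked genes. hlh-2 and hlh-3 are brightest in embryos, hlh-25 to hlh-29 in early embryos, most class II genes at comma, and hlh-11 in larvae.

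Most of the family changed between early embryos and comma embryos of hermaphrodites. Tests were made with limma on log2(FPKM + 0.1), a scale that understates the change of low genes, and a gene was called at a Benjamini-Hochberg adjusted p under 0.05 over all genes tested. Of 21 members tested 12 were higher in comma embryos and 7 lower, while 84.6% of the 11755 genes tested were called (45.3% higher and 39.3% lower), so the members' share was near that of all genes. For 15 of these 21 members 1 of the groups averaged under 1 FPKM, and such a member passed the filter only through the stage at which it was high. hlh-12, hlh-31 and hlh-34 were not tested here.

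The members called higher at comma include factors known from neurons, glands, glia and non-striated muscle. hlh-8, the Twist relative of the postembryonic mesoderm lineage, had 26.4, 29.1 and 24.9 FPKM in comma embryos, against 0.251, 0 and 0 FPKM in early embryos, a log2 change of 7.44 ± 0.52 (SE) at adjusted p = 7.02e-06. hlh-15 (of the NHLH family), hlh-13 (related to PTF1a), hlh-19 (an achaete-scute relative) and hlh-10 were listed at 0 in all 3 early embryo libraries. In comma embryos hlh-15 had 45.2, 45.9 and 68.5 FPKM, hlh-13 had 11.6 to 15.3, hlh-19 had 2.55 to 4.76 and hlh-10 had 3.13 to 4.67 FPKM, so no value overlapped with early embryos, as in 86.7% of all genes. hlh-4, known for the ADL chemosensory neurons, had 18.7, 19.7 and 20.9 FPKM at comma, against 0.194, 0.299 and 0 FPKM in early embryos (log2 6.43 ± 0.53). hlh-6, which pharyngeal gland cells need, had 24.3, 24.5 and 26.1 FPKM at comma, against 0.321, 0.197 and 0.732 FPKM (log2 5.69 ± 0.41). The Olig relatives followed: hlh-32 averaged 23.3 FPKM at comma, against 0.446 FPKM in early embryos (log2 5.63 ± 0.63), hlh-17 changed by 3.32 ± 0.79 and hlh-16, which works in the AIY interneuron lineage, by 2.74 ± 0.41.

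The 5 REF-1 family genes among the members moved the other way together. ref-1 itself is on the list of other bHLH genes described below, where the lowest log2 change was -2.44, so it did not fall as far as these 5. hlh-25 had 0.677, 0.220 and 0.0915 FPKM in comma embryos, against 18.8, 15.8 and 22.1 FPKM in early embryos, a log2 change of -5.74 ± 0.49 at adjusted p = 1.74e-05. hlh-27 had 0.056 to 0.538 FPKM at comma, against 14 to 19.9 FPKM (log2 -5.71 ± 0.50), and hlh-29 had 0 to 0.178 FPKM, against 5.67 to 8.70 FPKM (log2 -5.73 ± 0.50). The log2 change was -5.58 ± 0.50 for hlh-28 and -5.20 ± 0.53 for hlh-26. No comma value of these 5 genes came near the lowest early embryo value, and in N2 L3 larvae all 5 were at 0 FPKM in all 3 libraries. In between, hlh-28 and hlh-29 each stood at 1.62 and 2.13 FPKM in the N2 L1 libraries used and at 0.0591 FPKM in the one left out. Both had 0 reads in every spike-in L1 library, of N2 and of set-4, so the L1 libraries disagree on these genes.

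Members already present in early embryos changed less. hlh-30 had 177, 185 and 214 FPKM at comma, against 53.3, 57.8 and 41 FPKM in early embryos, and rose by 1.89 ± 0.18 on the log2 scale (adjusted p = 2.93e-05). hlh-14, an achaete-scute relative of neuroblast divisions, rose by 0.63 ± 0.17, and hlh-11, a relative of the AP-4 factors known for fat metabolism, fell by 1.64 on the log2 scale (1.73, 1.88 and 4.03 FPKM at comma, against 9.90, 5.10 and 7.95 FPKM). hlh-2 stood at 156, 184 and 106 FPKM at comma, against 181, 200 and 175 FPKM in early embryos, with overlapping groups (log2 -0.39 ± 0.17, adjusted p = 0.0558). The achaete-scute relative hlh-3 also overlapped, with 88.7, 106 and 70.8 FPKM at comma, against 96.9, 128 and 109 FPKM (log2 -0.38 ± 0.16, adjusted p = 0.0494), and 7 of 10 other settings lost its call, among them leaving out comma replicate 1 or 3 or early embryo replicate 2 or 3. hlh-33 did not pass the test (log2 0.43 ± 0.81).

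Mixed sex embryos gave similar directions with 1 exception. Of 21 members tested 14 were higher at comma and 5 lower, beside 80.8% of all genes called (42.8% higher and 38% lower, with groups apart in 82.8%), and for 13 of the 21 a group averaged under 1 FPKM. hlh-32 (log2 6.06 ± 0.60), hlh-15 (5.76 ± 1.04) and hlh-13 (5.64 ± 0.70) had the largest increases. The falls were again the 5 REF-1 family members, led by hlh-25 (0.144, 0.312 and 0 FPKM at comma, against 16.1, 15.3 and 14.1 FPKM in early embryos, log2 -6.15 ± 0.54), hlh-28 (-5.11 ± 0.62) and hlh-26 (-5.03 ± 0.58). The exception was hlh-11, which had 2.28, 2.05 and 3.12 FPKM in mixed sex comma embryos, against 0.863, 0.349 and 0.962 FPKM in mixed sex early embryos (log2 1.71 ± 0.50, adjusted p = 0.0140). hlh-2 (log2 -0.05 ± 0.11) and hlh-3 (-0.01 ± 0.08) were not called.

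Most members called between comma embryos and L1 larvae were lower in L1 larvae, while hlh-11 rose in N2 and in mixed sex animals. In hermaphrodites 9 of 17 members tested were called, 1 higher and 8 lower, beside 49.8% of 14138 genes (25.5% higher and 24.3% lower). hlh-11 had 127 and 148 FPKM in N2 L1 larvae, against 1.73, 1.88 and 4.03 FPKM in N2 comma embryos, a log2 change of 5.87 ± 0.46 at adjusted p = 0.000656. Its value in the library left out was 109 FPKM. Among the called members the largest falls were hlh-17 (0.176 and 0 FPKM at L1, against 4.15 to 7.63 FPKM, log2 -4.95 ± 0.73), hlh-13 (-4.83 ± 1.25) and hlh-19 (-4.15 ± 0.84). hlh-14 (-3.72 ± 0.23), hlh-3 (-3.55 ± 0.26) and hlh-2 (-3.17 ± 0.26) were lower too, hlh-2 standing at 13.7 and 16.7 FPKM in L1 larvae, against 106 to 184 FPKM in comma embryos. hlh-6 (-1.92 ± 0.29) and hlh-4 (-1.38 ± 0.30) were lower as well. hlh-30 was not called, with 159 and 132 FPKM at L1, against 177 to 214 FPKM at comma (95% interval of the log2 difference -0.79 to 0.14).

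The N2 L1 libraries were far apart for several low members. hlh-8 had 6.97 and 0 FPKM, hlh-15 had 0 and 10.5, hlh-16 had 6.67 and 0, hlh-32 had 5.78 and 0, and hlh-33 had 2.52 and 16.6 FPKM. None of these 5 was called, although all but hlh-33 were below every comma library, as groups did not overlap in 68.6% of all genes. Without N2 L1 replicate 1 more members passed the filter and more were called. That fit takes the spread of the lone L1 library from the comma libraries, so its count cannot be set beside the main one. Without comma replicate 1, 2 or 3 the count was 7, 6 or 8, beside 33.6%, 30.6% and 51.3% of all genes. The count of 9 thus depends on single libraries. hlh-13 lost its call without any 1 of the 3 comma libraries, hlh-19 without comma replicate 1 or 2, and hlh-4 without comma replicate 2.

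In mixed sex animals 13 of 18 members were called between comma and L1, 2 higher and 11 lower, beside 62.2% of all genes (32.3% higher and 29.9% lower, with groups apart in 77.1%). hlh-11 had 132 and 120 FPKM in mixed sex L1 larvae, against 2.05 to 3.12 FPKM in comma embryos (log2 5.84 ± 0.27, adjusted p = 0.000129). hlh-33 had 5.57 and 13.1 FPKM at L1, against 0.207, 0.786 and 0.412 FPKM (log2 4.25 ± 0.68). Among the called members the largest falls were those of hlh-14 (0 and 0.243 FPKM, against 86.5 to 98.7 FPKM, log2 -8.82 ± 0.55) and hlh-16 (0 and 1.67 FPKM, against 37.6 to 74.3 FPKM, log2 -6.75 ± 1.19), with hlh-19 at 0 FPKM in both L1 libraries, against 5.21 to 7.99 FPKM. hlh-2 stood at 24.1 and 16.8 FPKM in L1 larvae, against 161 to 206 FPKM.

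**Figure D2:**
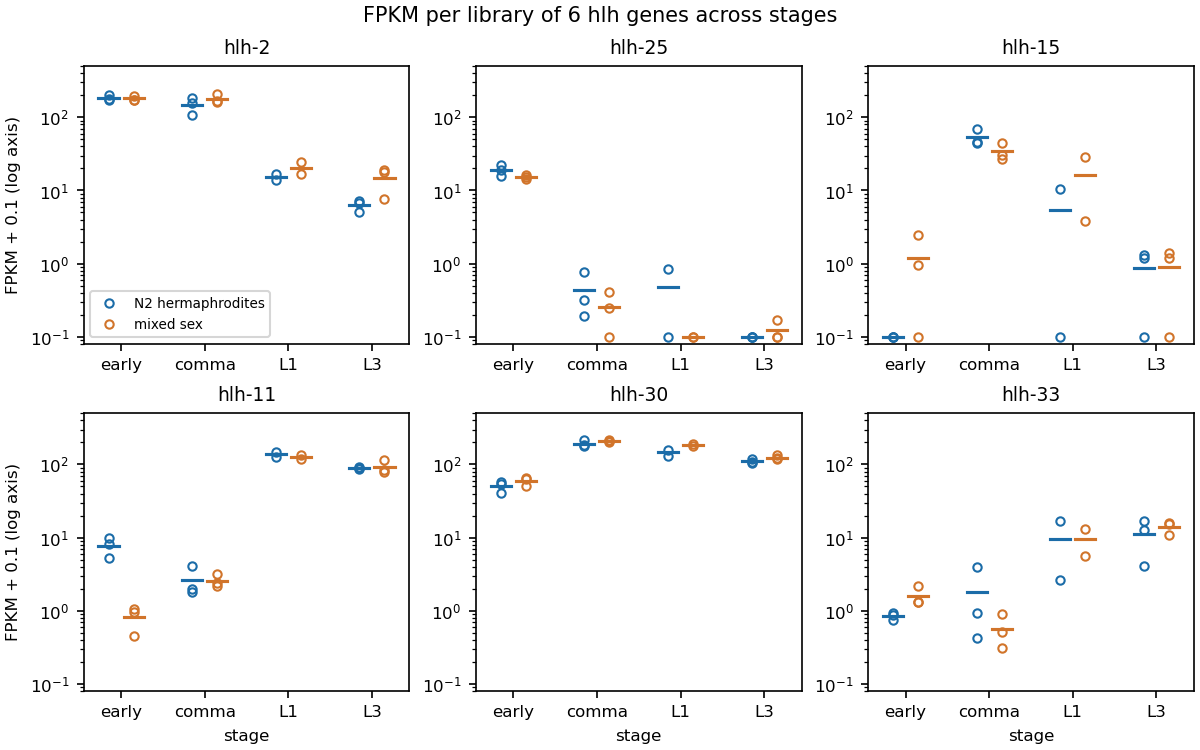
FPKM + 0.1 (log axis) in each library for 6 hlh genes at 4 stages, N2 hermaphrodites left (blue) and mixed sex animals right (orange) at each stage, with a bar at the mean. The library deposited under both L1 labels is left out. hlh-25 drops after the early embryo, hlh-15 peaks at comma, hlh-11 reaches 86.7 to 148 FPKM in N2 larvae, and hlh-30 is at 41 FPKM or more in every library drawn.

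From L1 to L3 few members changed. In hermaphrodites 3 of 14 members tested were lower in L3 larvae and none higher, beside 29.4% of all genes called and 59.9% whose groups did not overlap. hlh-3 had 1.00, 1.52 and 1.18 FPKM in N2 L3 larvae, against 5.78 and 8.43 FPKM in N2 L1 larvae (log2 -2.19 ± 0.40, adjusted p = 0.0179). hlh-14 had 0.128, 0.816 and 0 FPKM, against 4.36 and 5.46 FPKM (log2 -4.01 ± 1.10, adjusted p = 0.0480), and its value in the library left out was 0.709 FPKM, inside the L3 range. hlh-2 had 7.18, 4.98 and 6.72 FPKM, against 13.7 and 16.7 FPKM (log2 -1.03 ± 0.27, adjusted p = 0.0413). These calls were not stable: without N2 L3 replicate 1 or 2, 0 members were called, beside 7.83% and 8.55% of all genes, and without replicate 3 only hlh-3 (1 member, beside 21% of all genes). With the second collection of N2 L3 larvae 1 member was called, again hlh-3 (log2 -2.37), beside 20.7% of all genes.

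In mixed sex larvae 1 of 12 members was called between L1 and L3, beside 33.4% of all genes called and 64.5% whose groups did not overlap. hlh-12, which distal tip cells use as they lead the growing gonad, had 2.55, 1.85 and 2.05 FPKM in L3 larvae, against 0 and 0.358 FPKM in L1 larvae (log2 3.61 ± 0.84, adjusted p = 0.0266), so no values overlapped. It was 1 of 4 members that passed the filter only through the stage at which they were high, and of the other 8 tested 0 were called. Summed germline markers stood at 155 to 187 FPKM in mixed sex L3 larvae, against 19.7 to 28.7 FPKM at L1, and their part in the hlh-12 difference was not tested. Without mixed sex L3 replicate 2 or 3, 0 members were called, beside 13.1% and 13.9% of all genes. Without mixed sex L1 replicate 3, 6 members were called, hlh-12 among them, beside 43.6% of all genes, with the spread of the lone L1 library taken from the L3 libraries. In N2 hlh-12 stood at 2.26, 1.34 and 2.07 FPKM at L3, against 0 and 3.74 FPKM at L1, and did not differ beyond that spread.

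Hermaphrodite and mixed sex early embryos differed in 3 of the 14 members tested, beside 15.6% of 9576 genes (6.84% higher and 8.73% lower in N2). For 4 of the 14 a group averaged under 1 FPKM, and 2 of the called members, hlh-4 and hlh-11, were among these, having passed the filter only through the group in which they were high. hlh-11 was higher in N2 early embryos, with 9.90, 5.10 and 7.95 FPKM, against 0.863, 0.349 and 0.962 FPKM in mixed sex early embryos (log2 3.37 ± 0.44, adjusted p = 0.0048). hlh-4 was lower, with 0.194, 0.299 and 0 FPKM in N2, against 2.19, 1.89 and 2.00 FPKM in mixed sex embryos (log2 -3.15 ± 0.68, adjusted p = 0.0237). hlh-16 was lower too, with 4.24, 6.45 and 3.39 FPKM, against 26.5, 19.3 and 10.8 FPKM (log2 -1.84 ± 0.35, adjusted p = 0.0156). None of the 3 genes is on X, and in none did the groups overlap, which held for 36.6% of all genes.

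The same preparations differed in some markers of later embryos. The 4 body wall muscle markers summed to 3.50 to 6.80 FPKM in N2 early embryos, against 14.1 to 26.3 FPKM in mixed sex early embryos, with 3 of 4 called lower in N2. Intestine markers summed to 7.2 to 12.8 FPKM, against 21.7 to 32.7 FPKM, with 1 of 4 called lower. Early zygotic markers summed to 107 to 137 FPKM, against 86.9 to 98.7 FPKM, with 2 of 5 called higher. Neuron markers summed to 517 to 530 FPKM in N2, against 461 to 518 FPKM in mixed sex embryos, with 0 of 4 tested called. The part of these marker differences in the hlh-4, hlh-11 and hlh-16 results was not tested. Without mixed sex early embryo replicate 3, 6 of 12 members tested were called, beside 23.4% of all genes, adding hlh-14 (log2 -0.60), hlh-28 (1.14) and hlh-29 (1.32). Without N2 replicate 1, or without mixed sex replicate 1 or 2, only hlh-11 was called (1 member), beside 3.57% to 4.4% of all genes.

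In comma embryos no member passed the threshold between N2 and mixed sex animals. With limma 0 of 18 members were called in comma embryos (0.0683% of all genes, 0.0427% higher and 0.0256% lower in N2), and 5 members had an unadjusted p under 0.05. hlh-11 had 1.73, 1.88 and 4.03 FPKM in N2, against 2.28, 2.05 and 3.12 FPKM in mixed sex comma embryos (95% interval of the log2 difference -1.04 to 1.07), so the groups overlapped. hlh-15 had 45.2, 45.9 and 68.5 FPKM in N2, against 26.9, 30.5 and 44.9 FPKM (log2 0.71 ± 0.28, adjusted p = 0.431). The change of the difference between N2 and mixed sex embryos, comma minus early, was itself called for 2 of 22 members, beside 7.8% of all genes: hlh-11 (interaction -3.33 ± 0.67, adjusted p = 0.0118) and hlh-4 (3.48 ± 0.61, adjusted p = 0.00595). Without mixed sex early embryo replicate 3 that count was 5, beside 10.6% of all genes, adding the X-linked hlh-8, hlh-15 and hlh-19.

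In L1 larvae 0 of 18 members were called by limma between N2 and mixed sex animals, as were 0% of all genes, with 1 member and 976 genes at an unadjusted p under 0.05. The intervals were wide at 2 libraries a group, for example -0.74 to 0.17 for hlh-30 and -7.10 to 7.56 for hlh-8 on the log2 scale. That 1 member was hlh-14, with 4.36 and 5.46 FPKM in N2 L1 larvae, against 0 and 0.243 FPKM in mixed sex L1 larvae (log2 4.81 ± 1.48, adjusted p = 0.692), and 38.6% of all genes had groups that did not overlap. The library deposited under both labels had 0.709 FPKM of hlh-14, close to the mixed sex values.

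In L3 larvae the mixed sex library that lacked her-1 sat with N2 for several members. hlh-2 had 7.18, 4.98 and 6.72 FPKM in N2 L3 larvae, against 7.48, 18.9 and 17.8 FPKM in mixed sex L3 larvae. hlh-8 had 7.11, 4.97 and 6.03 FPKM, against 5.40, 17.5 and 15.8 FPKM, and hlh-3 had 1.00, 1.52 and 1.18 FPKM, against 1.06, 4.84 and 4.30 FPKM. In each case mixed sex replicates 2 and 3 stood above all N2 libraries and replicate 1 beside or among them. hlh-14, under the expression filter here, had 0.128, 0.816 and 0 FPKM in N2, against 0.315, 2.09 and 2.21 FPKM. mab-3, a gene of male tail development, followed the same split with 4.14, 4.21 and 4.58 FPKM in N2, against 4.44, 51.4 and 48.6 FPKM.

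With all libraries 0 of 10 members were called in L3 by limma (0.0157% of all genes), and 1, hlh-2, had an unadjusted p under 0.05 (log2 -1.13 ± 0.38, adjusted p = 0.281). Without mixed sex L3 replicate 1, whose her-1 level goes against its label, 3 members were lower in N2, beside 4.57% of all genes called: hlh-3 (log2 -1.83, adjusted p = 0.0296), hlh-2 (-1.56, adjusted p = 0.0286) and hlh-8 (-1.47, adjusted p = 0.0265). hlh-11 (86.7 to 93.4 FPKM in N2, against 78.4 to 113 FPKM) and hlh-30 (105 to 120 FPKM, against 118 to 132 FPKM) overlapped between the groups.

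**Figure D3:**
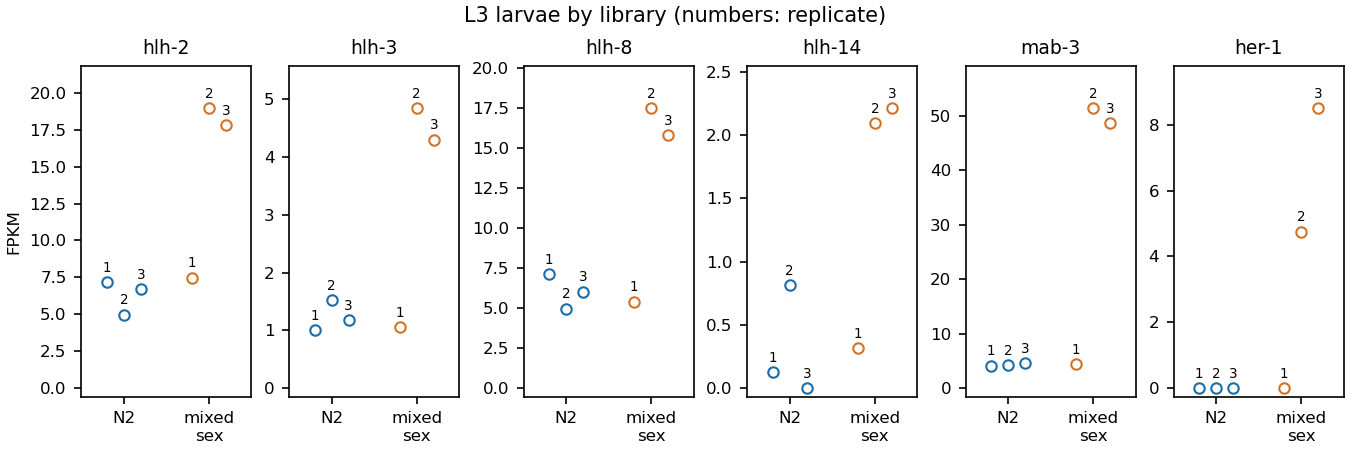
FPKM of 4 hlh genes and of the male markers mab-3 and her-1 in each L3 library, N2 left (blue) and mixed sex right (orange), with the replicate number above each point. Mixed sex replicate 1 lies beside the N2 libraries in all 6 panels (hlh-2 at 7.48 FPKM, her-1 at 0), and replicates 2 and 3 lie above them.

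Outside the stage series the most members were called in embryos without DPY-27. In dpy-27(y56) early embryo preparations 13 of 19 members tested differed from N2 early embryos, 8 higher and 5 lower, beside 48% of 10790 genes (26.2% higher and 21.8% lower). For 8 of the 19 a group averaged under 1 FPKM, so they passed the filter only through the group in which they were high, and 5 of these were called. N2 early embryos are also the control of the dpy-21 and mixed sex comparisons and of the stage series, so those results share libraries.

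hlh-13 (on X) had 1.54, 5.53 and 13.8 FPKM in dpy-27 mutant embryos and was listed at 0 in all 3 N2 libraries (adjusted p = 0.00195). hlh-8 (on X) had 6.17, 11.7 and 1.30 FPKM, against 0.251, 0 and 0 FPKM in N2 (log2 4.86 ± 0.97, adjusted p = 0.00552). hlh-4, on III, had 4.35, 6.31 and 6.53 FPKM, against 0.194, 0.299 and 0 FPKM (log2 4.55 ± 0.67, adjusted p = 0.00156). In these genes no mutant library overlapped with N2, as in 57.4% of all genes, but the mutant libraries themselves spread widely for hlh-8 and hlh-13. The other rises were hlh-19 on X (0.289, 1.81 and 4.01 FPKM, against 0 in all N2 libraries), hlh-32 (log2 3.21 ± 0.74), hlh-16 (37.3, 41.1 and 45.5 FPKM, against 4.24, 6.45 and 3.39 FPKM, log2 3.01 ± 0.26), hlh-30 (0.77 ± 0.16) and hlh-14 (0.51 ± 0.17).

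The falls were led by hlh-11, with 2.61, 3.05 and 1.90 FPKM in dpy-27 mutant embryos, against 9.90, 5.10 and 7.95 FPKM in N2 (log2 -1.68 ± 0.36, adjusted p = 0.00755). hlh-25 had 7.48, 7.75 and 6.66 FPKM, against 18.8, 15.8 and 22.1 FPKM (log2 -1.49 ± 0.21, adjusted p = 0.00131). hlh-27 (log2 -1.34 ± 0.22), hlh-26 (-1.31 ± 0.39) and hlh-3 (-0.73 ± 0.23) were lower too. hlh-28 and hlh-29 on X, of the same REF-1 family, had log2 differences of -1.09 ± 0.45 and -1.24 ± 0.45 that missed the threshold (adjusted p = 0.0809 and 0.0531). hlh-2 was not called (209, 188 and 152 FPKM, against 181, 200 and 175 FPKM). hlh-14 kept its call under 3 of 11 other settings, hlh-19 under 4 of 10 and hlh-26 under 6 of 11, each losing it without any of several single libraries: hlh-14 without any mutant library or N2 replicate 1 or 3, and hlh-19 and hlh-26 without mutant replicate 2 or any N2 library. hlh-3 lost its call without N2 replicate 2 or 3.

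The median log2 difference was 4.06 over the 6 X-linked members and 0.51 over the 13 autosomal members tested, against 1.00 over all X genes and -0.15 over all autosomal genes. 4 of the 6 X-linked members were at or near 0 in N2 early embryos and passed the filter only through the mutant libraries. The filter therefore favoured a high median, which also depends on the pseudocount. It cannot be compared with the median of all X genes. Markers of muscle, intestine and epidermis were higher as well: body wall muscle markers summed to 87.7 to 201 FPKM in dpy-27 mutant embryos, against 3.50 to 6.80 FPKM in N2 (3 of 4 higher), intestine markers to 93.1 to 159 FPKM, against 7.2 to 12.8 FPKM (4 of 4 higher), and epidermis markers to 324 to 374 FPKM, against 111.1 to 119.4 FPKM (3 of 4 higher). Neuron markers did not follow, with sums of 467 to 504 FPKM, against 517 to 530 FPKM (2 of 5 higher and 1 lower). Maternal markers summed to 1379 to 1853 FPKM, against 2519 to 3661 FPKM (4 of 4 lower), early zygotic markers to 66.1 to 76.4 FPKM, against 107 to 137 FPKM (4 of 5 lower), and germline markers to 187 to 253 FPKM, against 334 to 505 FPKM (3 of 3 lower). The part of embryo age in these dpy-27 results was not tested.

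The difference between dpy-27 mutant and N2 early embryos can be set beside the difference between N2 comma and N2 early embryos for the 13 called members, with the reservation that both use the same N2 early embryo libraries. On the log2 scale the mutant difference was 4.86 for hlh-8, beside a comma difference of 7.44, 4.55 for hlh-4, beside 6.43, 3.21 for hlh-32, beside 5.63, and 3.01 for hlh-16, beside 2.74. It was 0.77 for hlh-30, beside 1.89 at comma, and 0.51 for hlh-14, beside 0.63. hlh-13 and hlh-19, at 0 in N2 early embryos, get no fold in either. Among the falls the mutant difference was -1.68 for hlh-11, beside -1.64 at comma, and -0.73 for hlh-3, beside -0.38. In the REF-1 family it was -1.49 for hlh-25, beside -5.74, -1.34 for hlh-27, beside -5.71, and -1.31 for hlh-26, beside -5.20.

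An alternative chosen after seeing the data set mixed sex early embryos in place of N2. Their muscle, intestine, epidermis and early zygotic marker sums lie between those of N2 and the mutant. Maternal and germline sums overlap with N2, and neuron sums with both. Strain and the share of males differ as well. 7 members were then called, beside 35.9% of all genes: hlh-25 (log2 -1.12) and hlh-27 (-0.93) were lower, and hlh-13 (4.87), hlh-32 (4.25), hlh-4 (1.37), hlh-16 (1.14) and hlh-30 (0.61) higher. hlh-11 turned to the other side against that control, with a log2 difference of 1.67.

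Against heterozygous dpy-27(y56) early embryos 0 of 19 members were called by limma, as were 0% of all genes, with 3 members and 301 genes at an unadjusted p under 0.05. hlh-13 had 1.54, 5.53 and 13.8 FPKM in dpy-27 mutant embryos, against 0.686 and 0.304 FPKM in heterozygous embryos (log2 2.94 ± 1.04, adjusted p = 0.833). hlh-4 (4.35, 6.31 and 6.53 FPKM, against 2.03 and 1.20 FPKM) and hlh-16 (37.3, 41.1 and 45.5 FPKM, against 25.2 and 16.5 FPKM) were the others, and in all 3 genes the mutant libraries lay above the heterozygous ones, while groups were apart in 19.6% of all genes. The heterozygous libraries were far apart: replicate 1 had 61.0 FPKM of hlh-14 and 10.3 FPKM of hlh-25, and replicate 2 had 6.97 and 1.29 FPKM. Body wall muscle markers summed to 138 FPKM in replicate 1 and 542 FPKM in replicate 2. Without heterozygous replicate 1, 1 member was called, hlh-14 (log2 2.79, adjusted p = 0.0398), beside 6.37% of all genes, with the spread of the lone heterozygous library taken from the mutant ones.

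**Figure D4:**
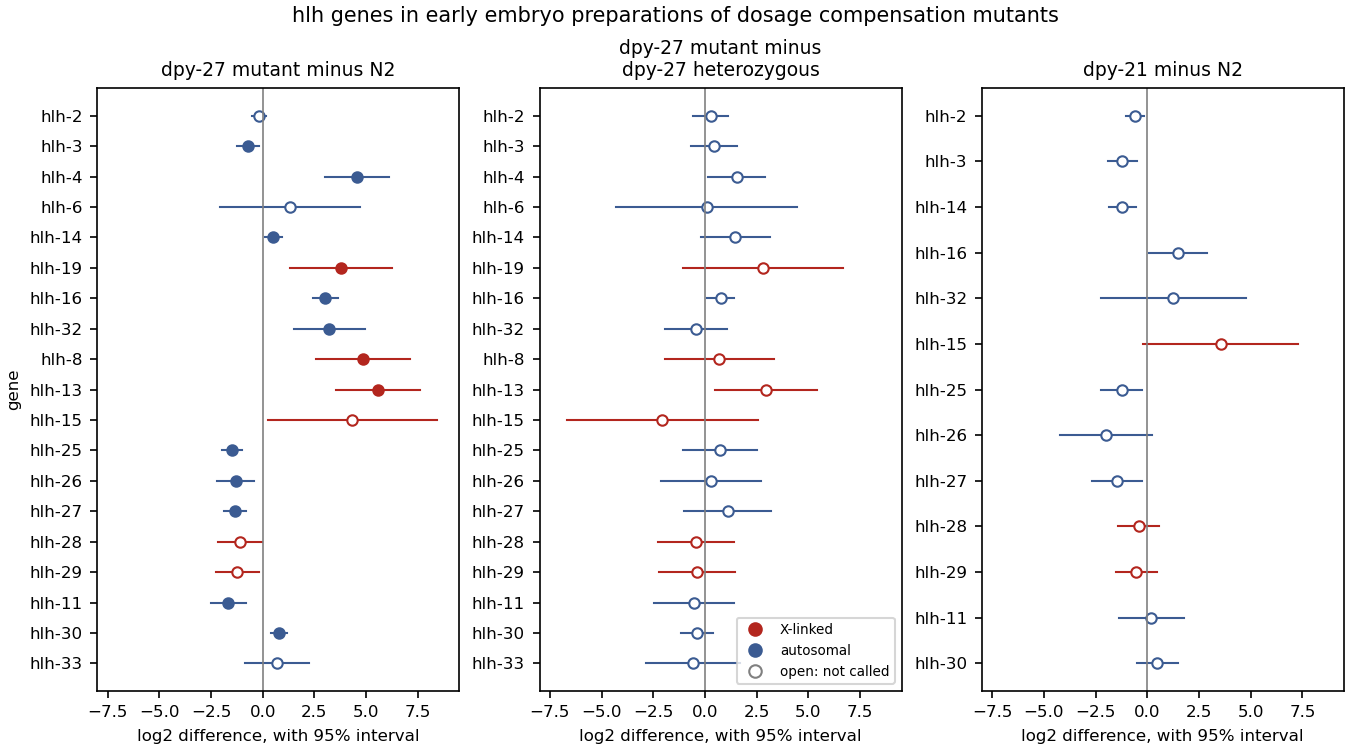
Log2 differences of the tested hlh genes in early embryo preparations, with 95% intervals: dpy-27 mutant minus N2 (left), dpy-27 mutant minus dpy-27 heterozygous (middle) and dpy-21 minus N2 (right). Red is X-linked, blue autosomal, and filled points were called at an adjusted p under 0.05. Filled points occur only on the left, 8 to the right of 0 and 5 to the left.

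In L1 larvae 0 of 16 members differed between dpy-27(y56) and N2 by limma, beside 0.34% of all genes, and 3 members had an unadjusted p under 0.05. hlh-17 had 1.24, 1.89 and 4.17 FPKM in dpy-27 mutant L1 larvae, against 0.176 and 0 FPKM in N2 (log2 3.65 ± 1.09, adjusted p = 0.210), but 2.38 FPKM in the library deposited under both labels. hlh-15 had 12.7, 11.1 and 7.64 FPKM, against 0 and 10.5 FPKM. Each N2 L1 library decided a value here: without replicate 2 hlh-15 was called higher in the mutant (1 member, beside 6.42% of all genes), and without replicate 1 hlh-32 was (1 member, beside 7.14%), each with the remaining N2 library at 0 and its spread taken from the mutant libraries. hlh-11 (165, 152 and 148 FPKM, against 127 and 148 FPKM) had an interval of -0.48 to 0.46 on the log2 scale.

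dpy-27 RNAi in mixed embryos changed no member at the threshold: 0 of 22 tested by limma, beside 0% of 12552 genes, with 0 members and 107 genes at an unadjusted p under 0.05. The 6 X-linked members had a median log2 difference of 0.54, against 0.57 over all X genes, and the 16 autosomal members -0.27, against -0.01 over all autosomal genes. On X, hlh-15 had 8.55, 9.16, 32.7 and 48.6 FPKM (sorted) in RNAi embryos, against a lowest of 1.87, a median of 15.1 and a highest of 32.9 FPKM with the vector (log2 0.87 ± 0.77). hlh-19 (0.66 ± 0.81), hlh-13 (0.65 ± 0.86) and hlh-8 (0.44 ± 0.65) also had values above 0, while hlh-28 (-0.27 ± 0.66) and hlh-29 (-0.26 ± 0.62) did not. In every one of these genes the groups overlapped. The vector embryos were uneven, and body wall muscle markers summed to 180 to 1410 FPKM in the RNAi embryos, against 40.5 FPKM in vector replicate 5 and up to 1510 FPKM in vector replicate 2. hlh-25 moved opposite to those markers, at 19.2 FPKM in vector replicate 5 and 2.65 FPKM in replicate 2, and the part of embryo age was not tested.

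In L3 larvae 0 of 13 members were called between dpy-27 RNAi and vector by limma, beside 0.0313% of all genes, and 2 had an unadjusted p under 0.05, both on X. hlh-19 had 1.08, 3.89, 2.02 and 2.13 FPKM with dpy-27 RNAi, against 0.668, 0.385, 0 and 0 FPKM with the vector (log2 3.11 ± 0.81, adjusted p = 0.192). hlh-13 had 1.46, 1.48, 1.85 and 2.27 FPKM, against 0.815, 0.882, 0.633 and 1.31 FPKM (log2 0.85 ± 0.33, adjusted p = 0.349). In both the groups were apart, as in 7.69% of all genes, at levels close to the filter of 1 FPKM, and both were chosen after their values were seen. Body wall muscle markers summed to 3335 to 3620 FPKM with dpy-27 RNAi, against 4034 to 4446 FPKM with the vector, with 0 of 4 called, and their part was not tested. The third X-linked member tested, hlh-8, had a log2 difference of -0.23 ± 0.27. The median over the 3 was 0.85, and that over all X genes was 0.39. hlh-19 and hlh-13 averaged under 1 FPKM with the vector and passed the filter only through the RNAi libraries. The filter therefore favoured a high median, which cannot be compared with that of all X genes. Same-numbered libraries deviated together to unequal degrees, and no label says that they were paired. With the number as a block, 233 of all genes were called in place of 4, but still 0 members. The limma interaction test of the RNAi effect, L3 larvae minus embryos, called no member (0 of 19, beside 0% of 13489 genes, with 1 member and 167 genes at an unadjusted p under 0.05).

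**Figure D5:**
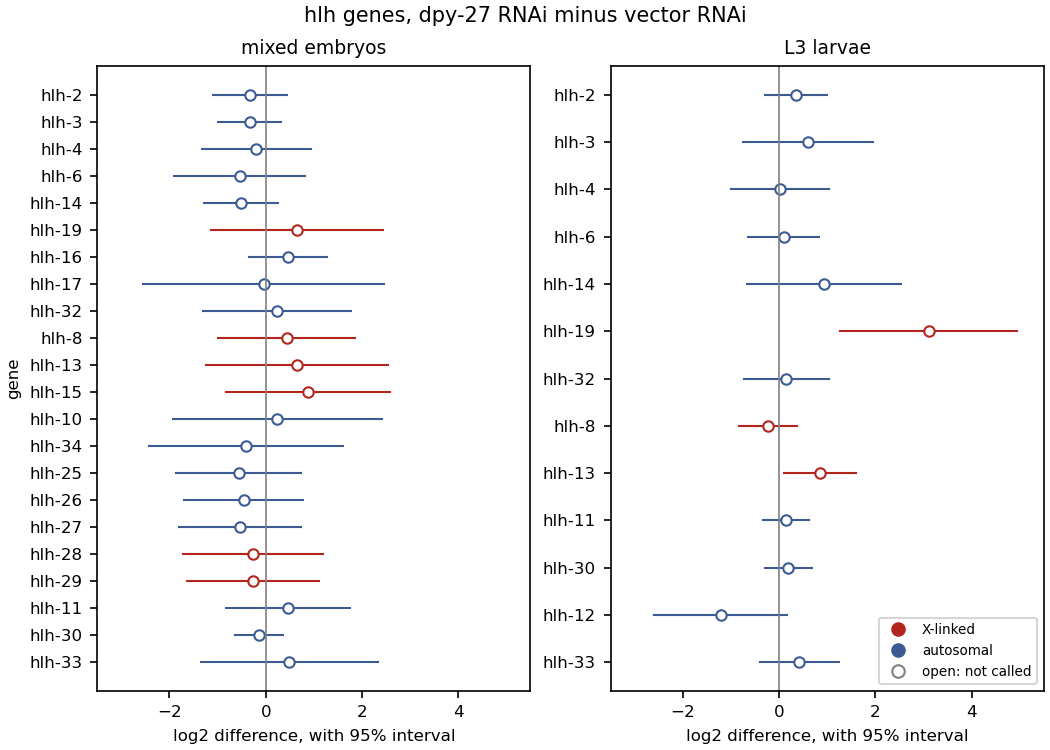
Log2 differences, dpy-27 RNAi minus vector RNAi, of the tested hlh genes in mixed embryos (left) and L3 larvae (right), with 95% intervals, X-linked in red and autosomal in blue. No point is filled, as no member was called, and the intervals of hlh-19 (1.26 to 4.95) and hlh-13 (0.10 to 1.61) in L3 larvae lie above 0.

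dpy-21(e428) early embryos had 0 of 13 members called by limma, beside 6.02% of 9636 genes, although 6 members had an unadjusted p under 0.05. hlh-14 had 12.3, 18.7 and 16.9 FPKM in dpy-21 embryos, against 40.1, 54 and 38.2 FPKM in N2 (log2 -1.20 ± 0.28, adjusted p = 0.0510). hlh-3 had 26.6, 44.7 and 53.8 FPKM, against 96.9, 128 and 109 FPKM (log2 -1.20 ± 0.29, adjusted p = 0.0556). hlh-2 had 97.7, 110 and 99.1 FPKM, against 181, 200 and 175 FPKM (log2 -0.59 ± 0.19, adjusted p = 0.0862). In these 3 autosomal genes, which were chosen after their values were seen, no dpy-21 library reached the lowest N2 library, while groups were apart in 37% of all genes. Libraries with the same replicate number deviated together here, but no label says that they were paired. With the number as a block in limma, hlh-14 (adjusted p = 0.0338) and hlh-3 (adjusted p = 0.0338) were called, with 1052 of all genes in place of 580.

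dpy-21 early embryo replicate 3 decided much of this. It had hlh-25 at 14.8 FPKM, against 4.42 and 4.28 FPKM in the other dpy-21 libraries, and hlh-16 at 4.67 FPKM, against 20.7 and 13 FPKM, both close to N2. Its body wall muscle markers summed to 13 FPKM, against 170 and 87.1 FPKM in the other dpy-21 libraries and 3.50 to 6.80 FPKM in N2, and their part was not tested. Without it 10 members were called, beside 49.4% of all genes: hlh-26 (log2 -3.01), hlh-27 (-2.08), hlh-25 (-1.75), hlh-3 (-1.34), hlh-14 (-1.18) and hlh-2 (-0.50) lower, and hlh-15, hlh-32 (2.90), hlh-16 (2.17) and hlh-30 (0.98) higher. hlh-15 was then at 2.57 and 4.28 FPKM, against 0 in all N2 libraries.

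dpy-21(e428) L3 larvae had 0 of 14 members called against the second N2 L3 collection by limma, beside 6.96% of 12614 genes, and 0 members at an unadjusted p under 0.05. Across all genes 572 of 1926 X genes were higher, but of the members on X only hlh-8 and hlh-15 passed the filter. hlh-8 had 4.67, 9.83, 8.75 and 4.74 FPKM in dpy-21 L3 larvae, against 5.32, 9.22, 9.38 and 4.5 FPKM in N2 (95% interval of the log2 difference -0.78 to 0.58). hlh-15 had 3.51, 1.29, 4.21 and 1.49 FPKM, against 1.20, 2.38, 2.54 and 0 FPKM (log2 1.34 ± 0.99). With the first N2 L3 collection as the control 3 members were called, beside 43.2% of all genes, hlh-32 (log2 1.10), hlh-30 (0.50) and hlh-11 (0.42).

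set-4(n4600) L3 larvae had 0 of 14 members called by limma, beside 0.00801% of all genes, and 1 member at an unadjusted p under 0.05. That was hlh-6, with 1.19, 1.60, 1.71 and 1.19 FPKM in set-4 larvae, against 2.73, 3.10, 2.79 and 1.34 FPKM in N2 (log2 -0.71 ± 0.25, adjusted p = 0.914), the groups overlapping. Homozygous set-1(tm1821) larvae had 0 of 12 members called against heterozygous larvae, beside 0.0156% of all genes, and again 1 at an unadjusted p under 0.05. That was hlh-15 on X, with 0, 0 and 1.09 FPKM in homozygous larvae, against 3.84, 1.82 and 3.05 FPKM in heterozygous larvae (log2 -3.60 ± 1.08, adjusted p = 0.191), with groups apart in 24.6% of all genes. Body wall muscle markers summed to 4413 to 4705 FPKM in homozygous larvae, against 3534 to 4206 FPKM in heterozygous larvae, with 0 of 4 called, and their part was not tested. hlh-11 averaged 164 FPKM in homozygous larvae, against 178 FPKM in heterozygous larvae, its highest mean of the 23 groups (95% interval of the log2 difference -0.37 to 0.24).

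The spike-in L1 libraries held 1533531 to 3215078 C. elegans counts and 129184 to 331898 C. briggsae counts. Here library sizes were set by the C. briggsae reads, so a change in a worm's total mRNA stays visible, and edgeR's quasi-likelihood test was used. set-4 itself had 1 read in each set-4 library, against 43, 59 and 72 reads in N2. Only hlh-2, hlh-11, hlh-30 and hlh-33 passed a mean of 10 counts, and the other 20 members could not be tested at this depth. hlh-30 had 1338, 1631 and 1606 reads in set-4 L1 larvae, against 486, 650 and 1018 reads in N2, or 1370, 1166 and 1129 after spike-in scaling, against 859, 903 and 807. It rose by 0.51 ± 0.15 on the log2 scale (adjusted p = 0.0177), beside 23.9% of 10080 genes called, 663 higher and 1746 lower, and a median of -0.18 over all genes. With C. elegans scaling, which gave 1208 higher, 1192 lower and a median of -0.02, the rise of hlh-30 was 0.67 (adjusted p = 0.00114). The call was lost without N2 replicate 3, set-4 replicate 2 or set-4 replicate 3. hlh-11 had 698, 970 and 807 reads in set-4 larvae, against 392, 469 and 656 reads in N2, and with the spike-in scaling was not called (log2 0.09 ± 0.16), nor were hlh-2 (-0.14 ± 0.21) and hlh-33 (0.25 ± 0.29).

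In mixed embryos hlh-2 stood at 93.6 to 225 FPKM in the 4 libraries labelled dpy-21 and 132 to 354 FPKM in the 4 labelled set-4, and hlh-30 at 120 to 334 FPKM in those labelled dpy-21 and 164 to 246 FPKM in those labelled set-4. hlh-4 spanned 6.81 to 59.4 FPKM and hlh-6 spanned 8.78 to 58.3 FPKM over the libraries labelled dpy-21, each highest in replicate 2. hlh-12 was at or under 0.322 FPKM in all 8, and hlh-10 stayed between 1.18 and 4.34 FPKM.

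The other bHLH genes are a list of 16 outside the hlh names, chosen with earlier results of these data known. Of 16 tested 9 were higher and 4 lower at comma than in early embryos of N2, beside 84.6% of all genes called, among them cky-1 (log2 6.55 ± 0.48), lin-22 (4.47 ± 0.27), a Hairy relative, and ahr-1 (4.02 ± 0.35), the aryl hydrocarbon receptor. At L1, against comma, 1 of 16 was higher and 9 lower, beside 49.8% of all genes, led by cnd-1 (-7.15 ± 1.43), a NeuroD relative, ngn-1 (-6.46 ± 0.95), the neurogenin, and hnd-1 (-4.71 ± 1.43), a Hand relative. At L3, against L1, 3 of 15 were higher and 2 lower, beside 29.4% of all genes. In mixed sex animals the counts were 10 higher and 4 lower of 16 at comma (80.8% of all genes called), 2 and 10 of 16 at L1 (62.2%), and 2 and 1 of 14 at L3 (33.4%). In dpy-27(y56) early embryos 5 of 16 were higher and 2 lower than in N2, beside 48% of all genes, with cky-1 (3.41 ± 0.69), lin-22 (2.79 ± 0.37) and mdl-1 (2.39 ± 0.39), a Mad relative, above all. Between N2 and mixed sex early embryos 1 of 14 was higher and 2 lower, beside 15.6% of all genes, of which lin-22 changed most (-2.06 ± 0.49). In the remaining comparisons of FPKM libraries limma called none of the list, with 0 to 4 of its genes at an unadjusted p under 0.05. In the spike-in libraries mdl-1 was the 1 called of 9, beside 23.9% of all genes (0.46 ± 0.15, adjusted p = 0.0344).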

How the data were processed

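Stranded polyA mRNA-seq of whole worms was aligned by the authors to WS220 and summarised with Cufflinks as FPKM per gene, and those deposited FPKM values were used as given. The submitters' processing notes name CASAVA 1.8, Cufflinks 2.2.0, HTSeq 0.6.0 and TopHat2 2.0.11. For the spike-in libraries the authors discarded reads that mapped to both C. elegans and C. briggsae and deposited HTSeq counts per gene. Summary lines that name no gene, 24.5% to 26.9% of the C. briggsae files, were left out here. The read depth behind the FPKM values is unknown (2664 to 8336 genes were listed at 0 per library), and an exact 0 can be a failed estimate. Of the deposited FPKM columns 13 matched no sample and were not used, and 1 gene of the same naming is not reported here.

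Libraries were scaled by median of ratios, log2(FPKM + 0.1) was tested with limma 3.58.1 (trend) in R 4.3.3 on genes whose group means averaged above 1 FPKM, and p-values were adjusted by Benjamini-Hochberg over all genes tested. Counts were tested with edgeR 4.0.16 (quasi-likelihood, TMM on C. briggsae counts, mean of at least 10 counts), and DESeq2 1.42.0 was an alternative. The scripts were tested on simulated data. The study's own count test could not be run on FPKM. Alternatives were a pseudocount of 1 FPKM, no filter, no scaling, a replicate block, other controls and leaving out each library. A change of libraries can change which genes pass the filter, so the number of members tested can differ from that of the main test. Samples were grouped by their labels.

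Same-numbered libraries deviated together in some comparisons, by correlations of deviations from the group means. These were 0.63, 0.14, 0.20 and 0.36 in dpy-27 RNAi L3 and 0.22, 0.17 and 0.21 in dpy-21 early embryos. They were 0.57, 0.27, 0.70 and 0.46 in set-4 L3 and 0.31, 0.11 and 0.39 in set-1 larvae. In dpy-27 RNAi mixed embryos they were 0.73, 0.92, 0.58 and 0.06. The main tests were unpaired, and pairing entered only the alternative with the replicate number as a block.

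The members and lists were chosen with earlier results of these data known. In each comparison all called members were to be named where there were 6 or fewer, and otherwise the 6 largest changes without overlap, 3 rises and 3 falls, with the 5 highest means at each N2 stage. Further members were named after their values were seen, to account for the family. Of the other bHLH genes up to 3 called ones with a log2 change over 1 were named per comparison.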

Additional observations from a re-analysis of the deposited data

Results flagged for a closer look

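Dixon's test was applied to 150 sets of values, each those of 1 member in 1 group of 4 to 6 libraries with a mean of at least 1 FPKM, and in 11 sets the highest or lowest library was far from the others, which chance gives in about 1 in 20 sets. 6 of the 11 were set-4 mixed embryo replicate 1, the highest of its 4 libraries each time: hlh-2 stood there at 354 FPKM (132 to 157 FPKM in the others), hlh-3 at 192 FPKM (62.4 to 63.9), hlh-4 at 55.0 FPKM (13.2 to 19.8), hlh-14 at 167 FPKM (55.1 to 60.6), hlh-25 at 13.4 FPKM (2.13 to 3.14) and hlh-27 at 9.27 FPKM (1.80 to 2.61). Body wall muscle markers summed to 397 FPKM in that library and 917 to 1326 FPKM in the others, and maternal markers to 1140 FPKM and 347 to 484 FPKM. One of those others, replicate 2, is the library whose set-4 level goes against its label.

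dpy-27 RNAi L3 replicate 4, the library with 19.9 FPKM of dpy-27 mRNA, had 9.91 FPKM of hlh-4 (2.13 to 2.63 FPKM in the others) and 3.10 FPKM of hlh-12 (0.421 to 0.810). hlh-19 reached 4.79 FPKM in set-4 L3 replicate 1, against 0.209 to 0.958 FPKM in the other set-4 libraries. hlh-27 reached 14 FPKM in vector RNAi mixed embryo replicate 5, against 2.22 to 6.60 FPKM in the others. hlh-29 was lowest in dpy-27 RNAi mixed embryo replicate 2, at 0.791 FPKM, against 1.66 to 1.80 FPKM in the others.

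The difference between N2 and mixed sex embryos changed between the early and comma stages for hlh-11 (-3.33 on the log2 scale) and hlh-4 (3.48), each by the limma interaction test.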

How the results depend on the processing

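Of 858 alternative values of single called members 773 kept direction and call, 84 lost the call and 1 turned round: hlh-11 in dpy-27 mutant early embryos, at 1.67 with mixed sex embryos in place of N2. Of 83 calls of a member in a comparison 62 held under every setting. Leaving out 1 library gave 18 to 22 called members for comma against early embryos and 6 to 17 for L1 against comma in N2, 0 to 4 for L3 against L1 in N2, 18 to 19, 11 to 14 and 0 to 6 for the same stages in mixed sex animals, 1 to 6 for N2 against mixed sex early embryos, 0 to 3 in L3, 2 to 5 for the interaction with stage, 9 to 13 for dpy-27 mutant embryos against N2, 0 to 1 against heterozygous embryos, 0 to 1 at L1, 0 to 10 for dpy-21 early embryos, 0 to 1 for the spike-in, and 0 in the rest. The share of all genes called moved over such settings too, for example from 33.1% to 53.3% for dpy-27 mutant embryos against N2. Without scaling 5 members were called for L3 against L1 in N2 (30.8% of all genes), 3 in mixed sex animals (37.4%) and 3 for dpy-21 early embryos (8.97%). Without the filter 2 were called for mixed sex L3 against L1 (20.6% of all genes), and 2 with the identical library kept (42.4%). The second N2 L3 collection gave 1 for L3 against L1 (20.7% of all genes) and the first gave 3 for dpy-21 L3 (43.2%). Mixed sex embryos as the control gave 7 for dpy-27 mutant embryos (35.9%). The cause was not tested. Scaling moved the median log2 difference of all genes from -0.22 to 0.02 for N2 L3, from -0.18 to 0.02 for mixed sex L1, from -0.23 to 0.09 for mixed sex L3, and from -0.26 to 0.00 for dpy-21 early embryos. For dpy-27 mutants it moved from 0.11 to -0.04 against N2 embryos, from 0.24 to -0.01 against heterozygous embryos and from 0.19 to 0.01 at L1. Leaving out both vector libraries numbered above 4, chosen after seeing the data, left 0 called.

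With the replicate number as a block, 0 members were called for L3 against L1 in N2, beside 15.7% of all genes, and 0 in mixed sex animals, beside 15.3%. In those comparisons the libraries share only a number. For dpy-21 early embryos, whose same-numbered libraries deviated together, 2 were called, beside 10.9% of all genes. The block changed no other count by over 1.5 times. These were 20, 10, 19 and 11 for the remaining stage comparisons, beside 83.4%, 44.5%, 80% and 46.6% of all genes. They were 3 for N2 against mixed sex early embryos (13.8%), 3 for the interaction (5.83%), 12 for dpy-27 mutant embryos (48.9%) and 1 for the spike-in (24.2%). No paired analysis was possible for N2 against mixed sex L1 larvae because those groups share only 1 number.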
